A study of Homo sapiens with 10 samples.

Results

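The HOX genes are the 39 protein-coding genes of the HOXA, HOXB, HOXC and HOXD clusters, among 58735 genes listed in the deposited tables. Members were taken by gene type and by a name made of HOX, the cluster letter and a number. The HOXA cluster on chromosome 7 holds 11 of them, the HOXB cluster on chromosome 17 holds 10, and the HOXC cluster on chromosome 12 and the HOXD cluster on chromosome 2 hold 9 each. RNA was sequenced from TPC-1 cells, a permanent line grown from a human papillary thyroid carcinoma and known for its RET/PTC1 fusion. One group carried a vector for overexpression of the long non-coding RNA PTCSC3-AS1 (OE, n = 5 libraries), and the other an empty vector (EV, n = 5). Replicates 4 and 5 of each group are in 1 deposited table, called the second set, and replicates 1 to 3 in another, called the first set. The series' design describes the libraries as 5 pairs, without naming what a pair shares, and the tests below treat them as unpaired. The labels name no clone, dose or time after transfection, and do not say what distinguishes the sets. The file headers name the OE libraries OE in the second set but EST_OE in the first, with no word on whether the vector was the same. Nothing says that replicates came from separate cultures, so p-values reflect the spread between libraries, which could be technical. The PTCSC3-AS1 transcript was not analysed here, so the OE label was not checked against its level.

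HOX genes encode homeodomain transcription factors that give cells of the embryo a position along the head-to-tail axis. Within each cluster the genes lie in the order in which they are expressed along that axis, and genes of the same number in different clusters are paralogs that arose by duplication. Low-numbered genes act toward the head and high-numbered genes toward the tail. Polycomb complexes keep clusters silent, while trithorax complexes and retinoic acid receptors promote their expression. The thyroid forms from the floor of the pharynx, a region of low-numbered HOX genes, and in mice Hoxa3 is needed for the thymus and parathyroids and for normal development of the thyroid.

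RefSeq promoters (GRCh38.p14, 250 bases before to 50 bases after a gene's start) were matched to 20 of the 39 genes. A pair of comparisons is printed, with CG dinucleotides in capitals because CG-rich promoters are a known feature of genes under Polycomb control. HOXA3 (chr7:27152534-27152833, minus strand) had the most counts of any HOX gene here, and its paralog HOXD3 (chr2:176157057-176157356, plus strand) had none. HOXD3 shares 74.1% of its exon bases with other genes, so its lack of counts is uncertain. HOXA7 (chr7:27156626-27156925, minus strand) and HOXA9 (chr7:27165488-27165787, minus strand) stand on the 2 sides of the border between the HOXA genes with counts and those without. HOXA3 has 7 entries in the table, and the one printed lies at the start of the gene as the files give it. The 7 entries hold from 0 to 29 CG dinucleotides, and which start these cells use was not tested.
HOXA3: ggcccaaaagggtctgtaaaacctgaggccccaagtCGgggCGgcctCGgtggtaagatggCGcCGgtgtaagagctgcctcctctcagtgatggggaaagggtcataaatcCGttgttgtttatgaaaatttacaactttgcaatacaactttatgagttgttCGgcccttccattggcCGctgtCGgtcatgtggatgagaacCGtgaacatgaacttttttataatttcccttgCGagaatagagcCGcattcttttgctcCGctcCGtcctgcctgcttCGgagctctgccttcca
HOXD3: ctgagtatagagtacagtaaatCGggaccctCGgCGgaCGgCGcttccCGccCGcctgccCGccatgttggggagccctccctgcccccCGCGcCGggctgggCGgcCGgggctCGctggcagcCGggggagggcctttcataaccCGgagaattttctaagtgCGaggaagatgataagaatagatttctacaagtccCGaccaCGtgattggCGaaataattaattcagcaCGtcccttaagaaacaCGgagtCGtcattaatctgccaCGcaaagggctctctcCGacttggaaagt
HOXA7: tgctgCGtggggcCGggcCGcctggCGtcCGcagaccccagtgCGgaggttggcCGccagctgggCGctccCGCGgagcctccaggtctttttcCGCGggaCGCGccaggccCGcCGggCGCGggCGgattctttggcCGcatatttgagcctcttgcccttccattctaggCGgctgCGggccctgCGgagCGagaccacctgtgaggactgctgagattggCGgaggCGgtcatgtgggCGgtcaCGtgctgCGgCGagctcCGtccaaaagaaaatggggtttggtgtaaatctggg
HOXA9: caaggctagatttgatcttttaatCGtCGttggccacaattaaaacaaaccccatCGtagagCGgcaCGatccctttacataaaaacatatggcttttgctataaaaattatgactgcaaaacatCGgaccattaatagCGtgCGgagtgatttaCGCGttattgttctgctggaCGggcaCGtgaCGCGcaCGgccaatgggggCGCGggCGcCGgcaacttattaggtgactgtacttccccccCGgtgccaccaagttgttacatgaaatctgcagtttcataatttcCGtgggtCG
These windows hold 15 CG dinucleotides at HOXA3, 25 at HOXD3, 31 at HOXA7 and 22 at HOXA9, against a median of 14 over 35116 promoter entries. HOX genes with counts had 14 entries (8 genes) with a median of 15 and a range of 0 to 31. HOX genes at 0 had 13 entries (12 genes) with a median of 24 and a range of 4 to 44. HOXA3 supplied 7 of the 14 entries, so their median leans on 1 gene. HOXB1, HOXC4 and HOXD12, with 1 or 2 counts each, are also among them. The rest held 11 (HOXA2), 27 (HOXA4), 29 (HOXA6) and 31 (HOXA7). HOXA5 and HOXB3 had no entry. Entries of a gene overlap in source, and HOXC4 and HOXC5 have the same entry, so the ranges are given with no test. The motif TATAAA, searched on both strands, was in 1 of the 14 entries with counts (the HOXA3 window above) and in 4 of the 13 at 0, one of them the HOXA9 window, and in 11.5% of all promoters. TGATNNAT, a sequence bound by PBX and HOX proteins, was in 2 entries with counts, in 1 at 0 and in 7.40% of all promoters. AGGTCA, a binding element of nuclear receptors, was in 0 entries of either kind and in 13.8% of all promoters.

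HOX RNA was scarce in TPC-1 cells, and it came mostly from genes of the paralog groups 1 to 8 in the HOXA and HOXB clusters. Of the 39 genes, 17 had at least 1 count and 22 had 0 counts in all 10 libraries. The 10 libraries held 15761474 to 18066559 counts each, 170265042 in all, of which 1378 were HOX counts. Counts of 81 to 184 per library fell on HOX genes, spread over 9 to 11 genes in each library. A count of 0 over all libraries allows up to 3 counts, or 0.0176 CPM (counts scaled to library size with TMM factors), a limit that covers counting error only. Above those 3 counts stood 12 genes, and 5 genes had 1 to 3 counts in all.

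By cluster, HOXA gave 1058 counts (76.8% of HOX counts), HOXB 295 (21.4%), HOXC 23 (1.67%) and HOXD 2 (0.145%). Counts were seen for 7 of 11 HOXA genes, 5 of 10 HOXB genes, 4 of 9 HOXC genes and 1 of 9 HOXD genes. The share of counts is not a share of molecules, because longer transcripts give more counts. A value per kilobase is not one either. The deposited length holds all annotated exon bases of a gene, whichever transcripts were present. Per kilobase of gene length, in RPKM (counts per kilobase of the deposited gene length, on the CPM scale), HOXA genes summed to 2.55 ± 0.588, HOXB genes to 0.297 ± 0.0991, HOXC genes to 0.0440 ± 0.0378 and HOXD genes to 0.00834 ± 0.0264 (SD, n = 10). By position, the paralog groups 1 to 3 gave 897 counts (65.1%) from 6 of 8 genes, groups 4 to 8 gave 477 counts (34.6%) from 9 of 15 genes, and groups 9 to 13 gave 4 counts (0.290%) from 2 of 16 genes. Per kilobase the order of the front groups turned: groups 1 to 3 summed to 1.32 ± 0.377 RPKM, groups 4 to 8 to 1.56 ± 0.455 RPKM, most of it HOXA5, and groups 9 to 13 to 0.0131 ± 0.0266 RPKM, and groups 4 to 8 exceeded groups 1 to 3 in 8 of 10 libraries. None of the 16 genes of groups 9 to 13, which pattern the trunk end and the limbs, exceeded 3 counts.

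**Figure D1:**
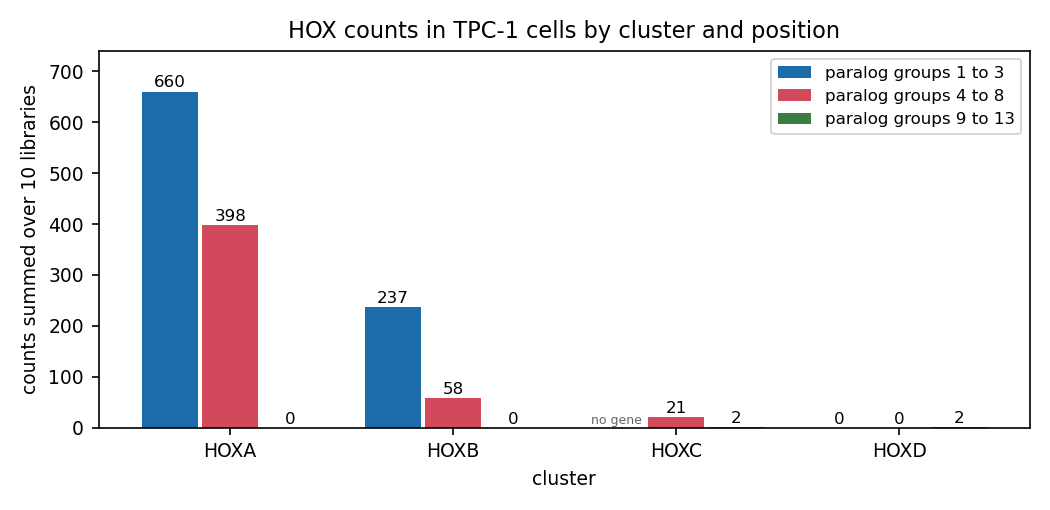
Counts summed over the 10 libraries, by cluster (x axis) and by paralog groups 1 to 3, 4 to 8 and 9 to 13 (bars, with the sum printed above each). The tallest bars are those of HOXA groups 1 to 3 (660 counts), HOXA groups 4 to 8 (398) and HOXB groups 1 to 3 (237), and groups 9 to 13 are near 0 in every cluster.

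Within HOXA, counts ended at HOXA7, which had 14, and HOXA9, HOXA10, HOXA11 and HOXA13 had 0. Within HOXB, HOXB3 had 230 counts, HOXB4 51, HOXB5 7, HOXB2 5 and HOXB1 2, and HOXB6, HOXB7, HOXB8, HOXB9 and HOXB13 had 0. HOXC6 had 18 counts, and HOXC4, HOXC8 and HOXC13 had 1 or 2 each. HOXD12 had 2 counts, both in EV replicate 1, and the paralogs HOXD3, HOXD4 and HOXD1 were at 0. However, HOXD3 shares 74.1% of its exon bases with other genes, HOXD4 80.5% and HOXD1 58.1%. How reads in shared bases were counted is not given, so the absence of counts for these genes is uncertain. Counts in both groups were found for 12 genes. HOXC13 had its 2 counts in OE libraries, and HOXB1, HOXC4, HOXC8 and HOXD12 had their 1 or 2 counts in EV libraries, which at this depth shows no difference between the groups.

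Over all 10 libraries, 3 genes reached a mean of 1 CPM, the level used here to call a gene expressed. They were HOXA3 (ENSG00000105997, hg38 chr7:27106184-27152581, minus strand), HOXA5 (ENSG00000106004, chr7:27141052-27143668, minus strand) and HOXB3 (ENSG00000120093, chr17:48548870-48604912, minus strand). HOXA3 averaged 2.58 ± 0.832 CPM, HOXA5 1.8 ± 0.536 CPM and HOXB3 1.34 ± 0.415 CPM (SD, n = 10). HOXA2 (ENSG00000105996, chr7:27100354-27102811, minus strand) followed at 0.923 ± 0.410 CPM. These are low levels for this line, as the median of the 14217 genes tested was 25.2 CPM. On that scale HOXA3 stood at percentile 17.5, HOXA5 at 13.9, HOXB3 at 10.7 and HOXA2 at 5.92.

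Per kilobase of gene length the order changed, and HOXA5 stood highest. The deposited length equals all annotated exon bases of a gene (1707 for HOXA5, 4306 for HOXA3 and 7456 for HOXB3). Which transcripts were present was not tested, so this order depends on that choice of length. HOXA5 averaged 1.06 ± 0.314 RPKM (SD, n = 10), HOXA3 0.599 ± 0.193, HOXA2 0.375 ± 0.167, HOXA6 0.276 ± 0.173 and HOXB3 0.180 ± 0.0557, against a median of 4.93 RPKM over genes tested. HOXB4 (0.0794 RPKM) and HOXC6 (0.0302 RPKM) were lower. HOXA5 exceeded HOXA3 in 9 of 10 libraries and each of the other genes named here in 10 of 10. HOXA3 exceeded HOXA2 in 9 of 10 libraries and HOXB3 in 10 of 10. Further down, HOXA2 exceeded HOXA6 in 7 of 10 libraries, HOXA6 exceeded HOXB3 in 7 and HOXB3 exceeded HOXB4 in 9.

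HOXA3, the pharyngeal regulator named above, had 43, 16, 56, 54 and 52 counts in OE replicates 1 to 5, against 43, 50, 27, 62 and 35 counts in EV replicates 1 to 5. The groups overlapped, and the lowest library was OE replicate 2. This scatter was wider than counting noise, with a chi-square per degree of freedom of 4.65 over the 10 libraries, where counting noise alone gives about 1. The gene's span in the files covers HOXA4, HOXA5 and HOXA6, and 17.9% of its exon bases are shared with HOXA-AS2, HOXA-AS3 and a pair of genes with clone names, 15.4% with genes of the other strand. The sources used here do not say whether counting used the strand, so reads in those bases cannot be told apart.

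HOXA5, which in mice is needed for lung and respiratory tract development, had 23, 29, 42, 44 and 30 counts in OE replicates 1 to 5, against 25, 17, 22, 40 and 35 counts in EV replicates 1 to 5. Its highest libraries were OE replicates 4 and 3 and EV replicate 4, and the groups overlapped. None of its exon bases are shared with another gene. HOXB3, a paralog of HOXA3 that acts with it in the hindbrain and pharyngeal region of mice, had 25, 20, 23, 29 and 25 counts in OE libraries, against 32, 9, 14, 33 and 20 counts in EV libraries. The OE libraries lay inside the wider EV range, whose low end was EV replicate 2. HOXB3 shares 13.2% of its exon bases with other genes, HOXB4 among them.

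HOXA2, which in mice sets the identity of the second pharyngeal arch, had 22, 16, 22, 17 and 7 counts in OE libraries, against 16, 22, 1, 19 and 15 counts in EV libraries. A single library, EV replicate 3, held the lowest value and widened the spread. HOXA6 had 11, 6, 7, 6 and 3 counts in OE libraries, against 10, 0, 1, 7 and 10 counts in EV libraries. HOXB4, which promotes the growth of blood stem cells, had 8, 8, 0, 4 and 3 counts in OE libraries, against 3, 5, 6, 11 and 3 counts in EV libraries. Both pairs of groups overlapped. HOXA6 shares 40.1% of its exon bases with other genes, mostly HOXA-AS3 on the other strand, and HOXA7 shares 62.5%, so the 61 and 14 counts of these genes are uncertain.

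**Figure D2:**
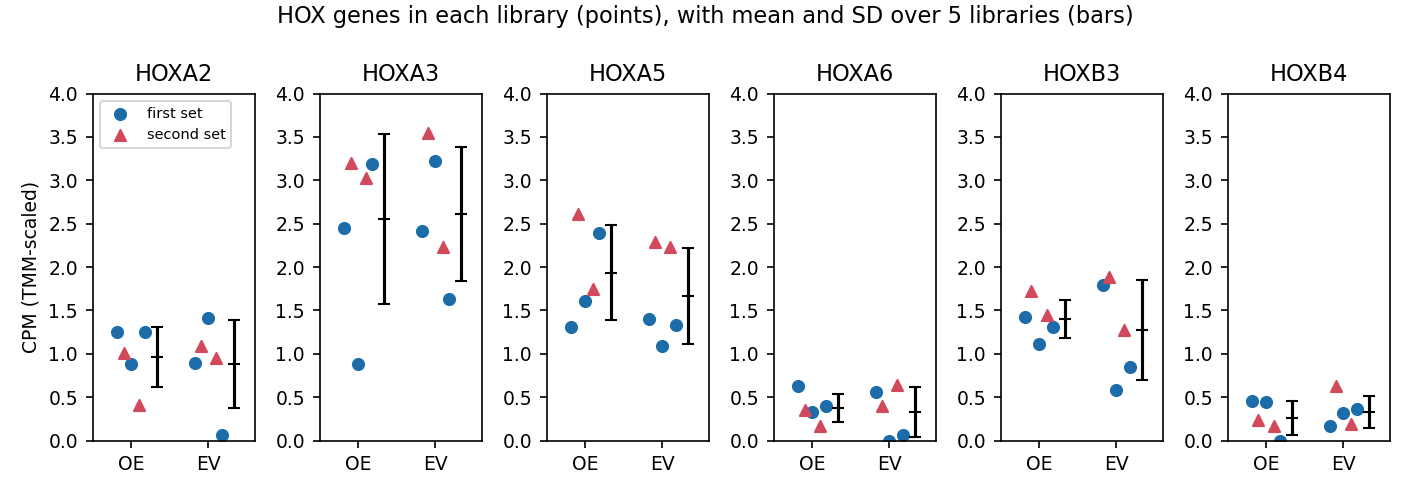
TMM-scaled CPM of 6 HOX genes, in OE libraries on the left of each panel and EV libraries on the right; circles are the first set, triangles the second set, and bars the mean and SD over 5 libraries. OE and EV libraries overlap for every gene shown, and HOXA2 is close to 0 in EV replicate 3.

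The first question of the design is whether PTCSC3-AS1 overexpression changed HOX RNA, and none of the 4 HOX genes tested was called. Summed over all 39 genes, HOX RNA was 8.28 ± 1.61 CPM in OE libraries and 7.90 ± 2.02 CPM in EV libraries (SD, n = 5 each). The HOXA sum was 6.42 ± 1.44 CPM in OE libraries and 6.03 ± 1.56 CPM in EV libraries, and the HOXB sum was 1.71 ± 0.257 CPM and 1.73 ± 0.699 CPM in OE and EV libraries. HOXA3, HOXA5, HOXB3 and HOXA2 passed the filter on low counts and were tested with both sets together. The other 35 genes were too low to test. Of the 4 tested, 0 were called by edgeR's quasi-likelihood test with Benjamini-Hochberg adjustment over all genes. The same test called 0% of the 14217 genes tested, so HOX genes cannot be set apart from the rest by it. At an unadjusted p under 0.05 it had 812 genes, 0 of them HOX genes, and DESeq2 called 6 genes, also without a HOX gene.

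HOXA3 averaged 2.55 ± 0.979 CPM in OE libraries and 2.61 ± 0.773 CPM in EV libraries (SD, n = 5 each), a log2 fold change of -0.048 (SE 0.30, adjusted p = 0.986, edgeR). HOXA5 averaged 1.93 ± 0.547 CPM in OE libraries and 1.67 ± 0.551 CPM in EV libraries, a log2 fold change of 0.24 (SE 0.25, adjusted p = 0.912, edgeR). HOXB3 averaged 1.40 ± 0.222 CPM in OE libraries and 1.28 ± 0.573 CPM in EV libraries, with 0.13 (SE 0.31, adjusted p = 0.965, edgeR). HOXA2 averaged 0.961 ± 0.348 CPM in OE libraries and 0.884 ± 0.502 CPM in EV libraries, with 0.11 (SE 0.49, adjusted p = 0.982, edgeR). The 95% intervals of these log2 changes ran from -0.69 to 0.60 for HOXA3, from -0.30 to 0.79 for HOXA5, from -0.52 to 0.79 for HOXB3 and from -0.93 to 1.15 for HOXA2. The intervals give the range of changes these data leave possible, and they are not limits of detection. A change outside them could also go uncalled after the adjustment over all genes. The sign for HOXA3 turns without OE replicate 2 (0.17), EV replicate 2 (0.10) or EV replicate 4 (0.032), that for HOXB3 without EV replicate 2 (-0.024), and that for HOXA2 without EV replicate 3 (-0.24). The value for HOXA5 kept its sign but ran from 0.066 (without OE replicate 3) to 0.37 (without OE replicate 5). The median log2 change was 0.12 over the 4 HOX genes and -0.0028 over all genes tested.

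Each set was also fitted alone. In the second set (n = 2 per group), 0 HOX genes were called, as were 0% of 14419 genes, of which 158 had an unadjusted p under 0.05 and 1 was called by DESeq2. In the first set (n = 3 per group), 0 HOX genes were called either, against 0.0349% of 14340 genes. HOXA3, HOXA5, HOXB3 and HOXA2 were tested in each set, 0 of the 4 had an unadjusted p under 0.05 with edgeR in either set, and DESeq2 called 0 HOX genes. In the second set the log2 fold changes of OE over EV were 0.10 (SE 0.34) for HOXA3, -0.053 (SE 0.37) for HOXA5, 0.0019 (SE 0.43) for HOXB3 and -0.53 (SE 0.59) for HOXA2. In the first set they were -0.16 (SE 0.44) for HOXA3, 0.46 (SE 0.34) for HOXA5, 0.22 (SE 0.45) for HOXB3 and 0.51 (SE 0.67) for HOXA2. Single libraries moved these values widely: HOXA2 in the second set ran from -1.31 (without OE replicate 4) to -0.020 (without OE replicate 5), HOXA5 in the first set from 0.18 (without OE replicate 3) to 0.63 (without OE replicate 1), and each of the other 6 values turned sign without at least 1 library. The difference of the OE effect between the sets, second minus first, was 0.26 (SE 0.63) for HOXA3, -0.52 (SE 0.51) for HOXA5, -0.24 (SE 0.64) for HOXB3 and -1.05 (SE 1.01) for HOXA2. None of these 4 differences was called (adjusted p = 0.9998 each, edgeR), beside 0.00703% of all genes, and none had an unadjusted p under 0.05. Leaving out 1 library, the difference ran from -0.82 (without OE replicate 4) to -0.23 (without OE replicate 3) for HOXA5 and from -1.82 (without OE replicate 4) to -0.50 (without EV replicate 3) for HOXA2, and it turned sign for HOXA3 and HOXB3.

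HOXA6 was too low to test in the second set. It had 6 and 3 counts (0.356 and 0.174 CPM) in OE replicates 4 and 5. EV replicates 4 and 5 had 7 and 10 counts (0.40 and 0.638 CPM), without overlap, while in the first set the groups overlapped. The share of all genes without overlap was not counted. With 2 libraries per group and so few counts, these values show no difference between OE and EV.

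**Figure D3:**
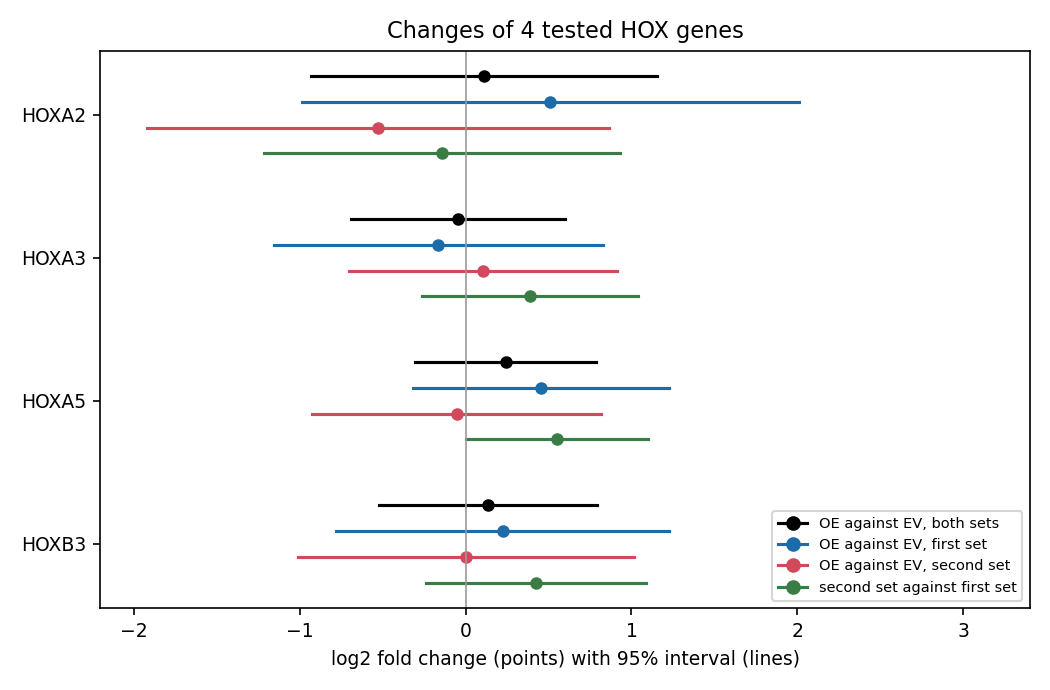
Log2 fold changes (points) with 95% intervals (lines) from edgeR for HOXA2, HOXA3, HOXA5 and HOXB3, for OE over EV in both sets together, in the first set and in the second set, and for the second set over the first set. Of the intervals shown, that of HOXA5 between the sets (0.0033 to 1.10) is the one that does not span 0, and it did not pass the adjustment over all genes.

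The second question is whether HOX RNA was stable between the sets. Again no HOX gene was called, but with 4 genes tested this does not show stability. HOX RNA summed to 9.35 ± 1.33 CPM in the second set (n = 4) and 7.25 ± 1.5 CPM in the first set (n = 6), and these ranges overlapped at 7.90 to 10.5 CPM and 4.90 to 9.0 CPM. The HOXA sum was 7.19 ± 0.885 CPM in the second set and 5.58 ± 1.40 CPM in the first set, and the HOXB sum was 2.01 ± 0.576 CPM and 1.53 ± 0.369 CPM in the second and the first set. With OE and EV libraries in 1 fit, 0 of 4 HOX genes were called, against 18.4% of the 14217 genes tested (1318 higher and 1303 lower in the second set). At that rate, 4 genes are too few for an absence of calls to set HOX genes apart. Their median absolute log2 change was 0.41, with 3 above 0 and 1 below, against 0.19 over all genes tested. DESeq2 also called 0 of the 4.

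HOXA5 had the largest difference between the sets among the 4. It had 44 and 30 counts in OE replicates 4 and 5 and 40 and 35 in EV replicates 4 and 5, against 23, 29 and 42 counts in OE replicates 1 to 3 and 25, 17 and 22 in EV replicates 1 to 3. The EV libraries of the sets did not overlap, while OE replicates 3 and 5 crossed. With so few EV libraries such a gap can arise by chance, and the share of all genes with one was not counted. HOXA5 averaged 2.22 ± 0.357 CPM in the second set and 1.52 ± 0.457 CPM in the first set, a log2 change of 0.55 (SE 0.26) with an unadjusted p of 0.0488 and an adjusted p of 0.150 (edgeR). HOXA3 averaged 3.0 ± 0.556 CPM in the second set and 2.30 ± 0.908 CPM in the first set, with 0.39 (SE 0.30, adjusted p = 0.405, edgeR). HOXB3 averaged 1.58 ± 0.272 CPM in the second set and 1.18 ± 0.432 CPM in the first set, with 0.42 (SE 0.31, adjusted p = 0.372, edgeR). HOXA2 averaged 0.864 ± 0.310 CPM in the second set and 0.962 ± 0.490 CPM in the first set, with -0.14 (SE 0.50, adjusted p = 0.880, edgeR), and its sign turns without OE replicate 5 (0.16) or EV replicate 2 (0.073). Leaving out 1 library gave 0.21 (without OE replicate 2) to 0.54 for HOXA3, 0.48 to 0.71 for HOXA5 and 0.28 (without EV replicate 4) to 0.65 (without EV replicate 1) for HOXB3. The median over the 4 was 0.41, against -0.0012 over all genes tested. Day, culture and sequencing run cannot be told apart from the set.

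The 4 tested HOX genes varied more among libraries of 1 group and set than the median tested gene did. The SD of log2 CPM within group and set was 0.62 for HOXA3, 0.30 for HOXA5, 0.47 for HOXB3 and 1.02 for HOXA2, against a median of 0.19 over genes tested. The biological coefficient of variation estimated by edgeR was 0.299 for HOXA3, 0.214 for HOXA5, 0.257 for HOXB3 and 0.446 for HOXA2, against a median of 0.123. The SD of log2 CPM includes counting noise, and all 4 genes stand at or below percentile 17.5 of level. Genes of a similar level were not compared, so neither measure sets the HOX genes apart from other low genes. Chi-square per degree of freedom over the 10 libraries was 2.76 for HOXA5, 2.21 for HOXB3 and 2.92 for HOXA2, values that include any difference between groups or sets.

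Non-coding RNAs of the clusters were scarce as well. Of 18 listed HOX-associated non-coding RNAs, 6 had counts and 1 was tested. HOXA-AS2, which runs antisense to the HOXA3 region (ENSG00000253552), had 66, 37, 75, 61 and 39 counts in OE libraries, against 59, 61, 40, 66 and 51 counts in EV libraries. It averaged 3.19 ± 0.978 CPM in OE libraries and 3.34 ± 0.591 CPM in EV libraries, a log2 fold change of -0.066 (SE 0.24, adjusted p = 0.977, edgeR), and it was -0.030 (SE 0.24) between the second and the first set. Its mean of 0.618 RPKM stood beside the 0.599 RPKM of HOXA3. HOXA-AS3 had 42 counts, HOXB-AS2 11 and HOTAIRM1 6. HOTAIR of the HOXC cluster, HOTTIP at the far end of HOXA and HAGLR of the HOXD cluster were at 0.

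Several genes flanking the clusters stood well above the HOX genes, beside clusters with and without counts. Of 13 flanking genes in the tables, 9 had counts and 7 were tested. Beside the HOXA cluster, SKAP2 averaged 7.46 RPKM and HIBADH 14.2 RPKM. CBX5 beside HOXC averaged 16.9 RPKM. MTX2 and LNPK beside the HOXD cluster, which had 2 counts, averaged 20.5 and 6.47 RPKM. The homeobox genes EVX1 and EVX2 at the far ends of HOXA and HOXD, and PRAC1 and PRAC2 beside HOXB13, were at 0. None of the 7 was called between OE and EV. Between the sets 3 of 7 fell in the second set, against 18.4% of all genes in either direction. HIBADH, a mitochondrial enzyme of valine breakdown, averaged 27.3 ± 1.34 CPM in the second set and 36.8 ± 1.82 CPM in the first set (-0.43, SE 0.077, adjusted p = 0.00207, edgeR). SKAP2 (-0.35, SE 0.089, adjusted p = 0.0153, edgeR), an adaptor protein of immune cell signalling, lost its call without OE replicate 4 or EV replicate 4. CALCOCO1 (-0.44, SE 0.12, adjusted p = 0.0200, edgeR) lost its call without OE replicate 4 or OE replicate 5.

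The TALE homeodomain proteins PBX, MEIS and PKNOX bind DNA together with HOX proteins. All 11 listed TALE genes had counts and 9 were tested. PBX3 averaged 56.2 RPKM and PBX2 11.3 RPKM, far above every HOX gene, while MEIS2 averaged 0.794 RPKM and MEIS1 0.251 RPKM, inside the range of HOXA genes, and PBX4 and PKNOX2 had 2 counts each. None was called between OE and EV. MEIS1, with the lowest p of them in OE against EV, averaged 2.50 ± 0.601 CPM in OE libraries and 3.0 ± 0.365 CPM in EV libraries (-0.27, SE 0.19, adjusted p = 0.880, edgeR). TGIF1, a corepressor of the same class, fell in the second set, with 54.7 ± 3.49 CPM against 70.4 ± 5.43 CPM in the first set (-0.36, SE 0.076, adjusted p = 0.00558, edgeR). The 6 ParaHox and CDX genes, sister genes of the HOX clusters and regulators of their tail end, were at 0 in all libraries.

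Most regulators of HOX chromatin were expressed well above the HOX genes, and none was called between OE and EV. CBX7 (0.943 RPKM) and RARB (0.0422 RPKM) were the exceptions, below HOXA5 at 1.06 RPKM. All 23 listed Polycomb genes were tested, with a median log2 change of 0.045 between OE and EV against -0.0028 over all genes. The lowest p-values were those of CBX7 (0.40, SE 0.14) and CBX2 (0.24, SE 0.084), readers of the Polycomb mark on histone H3, and of AEBP2 (-0.21, SE 0.073) and PHF19 (0.19, SE 0.070), partners of the mark's writing enzyme (adjusted p = 0.847 each, edgeR). Of the 20 trithorax genes and other activators, 19 were tested. KDM6A, which removes the Polycomb mark, averaged 40.1 ± 2.27 CPM in OE libraries and 47.4 ± 3.76 CPM in EV libraries (-0.24, SE 0.078, adjusted p = 0.847, edgeR). The retinoic acid receptor RARB was too low to test. At an unadjusted p under 0.05 edgeR had 6 Polycomb genes (CBX6 and the 4 above among them), 1 activator (KDM6A), 0 TALE genes and 0 flanking genes between OE and EV, beside 812 of 14217 genes in all, and DESeq2 called 0 of any of these lists.

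Between the sets, 6 of 23 Polycomb genes rose and 1 fell in the second set, and 3 of 19 activators rose and 1 fell, beside 18.4% of all genes in either direction. EZH2, which writes the Polycomb mark, averaged 53.9 ± 3.32 CPM in the second set and 37.9 ± 2.20 CPM in the first set (0.51, SE 0.075, adjusted p = 0.000609, edgeR). CBX2 averaged 31.1 ± 2.12 CPM in the second set and 21.1 ± 2.84 CPM in the first set (0.56, SE 0.085, adjusted p = 0.000690, edgeR). CBX7 averaged 8.68 ± 1.18 CPM in the second set and 5.93 ± 1.27 CPM in the first set (0.56, SE 0.14, adjusted p = 0.0123, edgeR), a call lost without EV replicate 4. RBBP4 and MTF2 were also among those that rose, and RNF2, a ubiquitin ligase of Polycomb, fell.

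Among the activators, the retinoic acid receptor RARA averaged 43.8 ± 1.72 CPM in the second set and 33.5 ± 3.87 CPM in the first set (0.39, SE 0.092, adjusted p = 0.0111, edgeR). Its relative RARG went the other way, with 44.8 ± 4.81 CPM in the second set and 58.6 ± 7.69 CPM in the first set (-0.38, SE 0.096, adjusted p = 0.0149, edgeR), a call lost without OE replicate 4 or EV replicate 4. WDR5 (0.25) and DOT1L (0.27), histone methylation factors, also rose, and lost their calls without 3 and 7 of the 10 libraries in turn. Of the 15 listed genes of all kinds called between the sets, all 15 had the same sign in OE and in EV libraries. Of these, 6 (EZH2, CBX2, HIBADH, TGIF1 and RARA among them) were called whichever library was left out. Among OE libraries alone 9 were called, in a fit that called 12.7% of all genes. Among EV libraries alone 0 were called, in a fit that called 0.414% of all genes. The 4 HOX genes tested, of which 0 were called with OE and EV libraries in 1 fit, are too few to contrast with these lists.

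**Figure D4:**
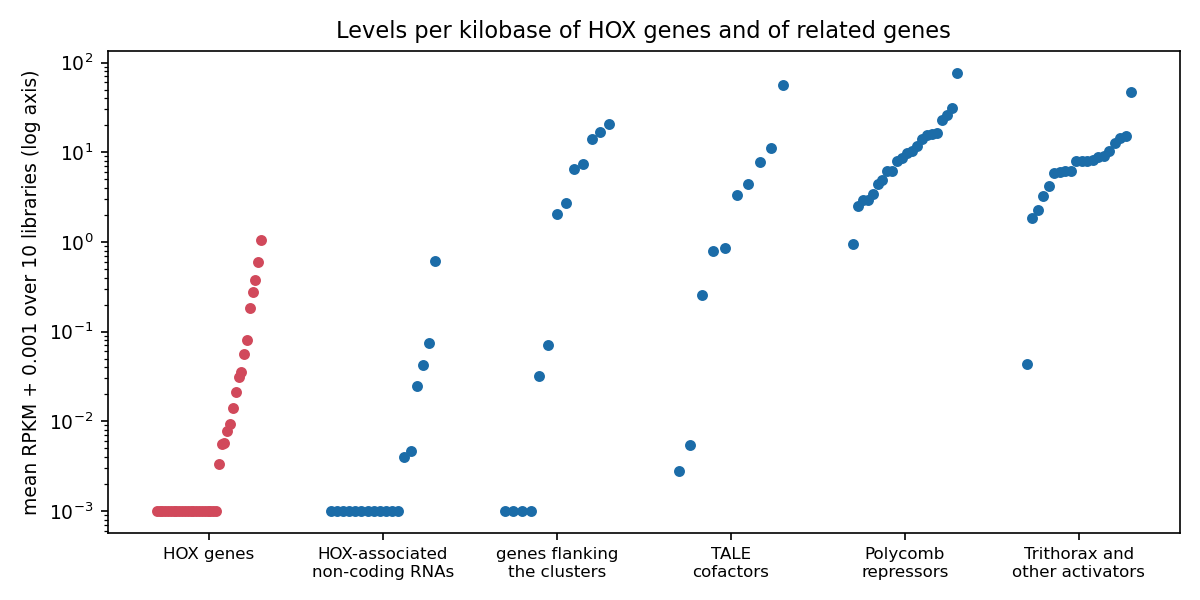
Mean RPKM over the 10 libraries plus 0.001, on a log axis, for each HOX gene reported (red) and each related gene (blue) reported from 5 lists, ordered by level within a list; points at the bottom are genes at 0 counts. The highest HOX gene, HOXA5 at 1.06 RPKM, lies below most Polycomb and trithorax genes and below PBX3 at 56.2 RPKM.

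The cell label was set beside marker genes. Of 8 thyroid lineage genes, 5 had counts, with PAX8 at 414 CPM and FOXE1 at 23.5 CPM, and NKX2-1, TSHR and SLC5A5, which define differentiated thyroid cells, at 0. The summed thyroid list ranged from 418 to 520 CPM in OE libraries and from 389 to 474 CPM in EV libraries. All 6 epithelial genes had counts, but unequally, with KRT18 at 269 CPM, KRT8 at 110 CPM and KRT7 at 3.57 CPM on average, and EPCAM (0.141 CPM), KRT19 (0.0998 CPM) and CDH1 (0.0234 CPM), defining genes of epithelium, near 0. Their sum of 355 to 453 CPM in OE libraries and 305 to 445 CPM in EV libraries was therefore mostly KRT18 and KRT8. The 4 mesenchymal genes summed to 3535 to 5290 CPM in OE libraries and 3557 to 5575 CPM in EV libraries. This was mostly FN1 (3017 CPM on average) and VIM (1322 CPM), with CDH2 at 23.85 CPM and COL1A1 at 3.27 CPM. Of 4 leukocyte genes, 2 had counts, with CD3E at 0 and a sum of at most 0.171 CPM in OE libraries and 0.129 CPM in EV libraries. The 3 endothelial genes summed to 0.296 to 0.998 CPM in OE libraries and 0.701 to 1.2 CPM in EV libraries. The 3 neuroendocrine C cell genes summed to 1.48 to 2.39 CPM in OE libraries and 1.27 to 1.8 CPM in EV libraries, with SYP at 271 counts in all, CHGA at 17 and the hormone gene CALCA at 0.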

How the data were processed

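Per the labels' protocols, TRIzol extraction and DNase I treatment gave the RNA, and NEBNext Ultra libraries were sequenced in paired ends. The submitters' processing notes list hg38 and the tools HISAT2 2.0.5, featureCounts 1.5.0-p3, fastp, DESeq2 1.20.0 and CASAVA 1.8; the sources used here do not give their order, settings or annotation. Per the file headers, the 2 tables deposited by the authors hold raw counts per gene and library and a gene length; 14 columns of FPKM or normalized values per library and the authors' own comparisons were not used. All 58735 genes have a GENCODE 29 identifier, and all 39 HOX genes have the same coordinates there. No library was a copy of another: counts within a group gave 4.30 to 53.1 chi-square per degree of freedom. EV replicate 2 stood apart from the other libraries on a principal component, so values without it are given where they matter.

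The members and lists were chosen with earlier results of these data known. The test was edgeR 4.0.16 in R 4.3.3 (TMM scaling, filterByExpr, quasi-likelihood, two-sided, Benjamini-Hochberg adjusted p under 0.05 over all genes tested), with the set as a term over both sets and an interaction term for the difference between sets. The pipeline was tested on simulated data. DESeq2 1.42.0, other scalings, no filter, a replicate block and leaving out each library were alternatives. Correlations of the deviations of same-numbered libraries were -0.11 to 0.16 in the first set. In the second set they were 0.31, which at 2 libraries per group is 1 value for both pairs. A replicate block lowered the median biological coefficient of variation there from 0.114 to 0.0708. The numbers were not taken to pair libraries, although the design counts 5 pairs without saying what joins them. A pairing in the second set may thus be missed, and the effect of a block is given with the alternatives. All 39 members are accounted for, those of at least 1 CPM in full; from each list the text names up to 4 genes with the lowest p in OE against EV and in second against first set, and others chosen after their values were seen. Some genes of the cluster and of the lists count in the sums but are not reported here by name. RPKM used the deposited gene length and TMM-scaled library sizes.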

Additional observations from a re-analysis of the deposited data

How the results depend on the processing

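The number of HOX genes called was 0 in each of the 5 comparisons under each alternative run, leaving out any 1 library included (0 to 0). With a replicate block, which takes same-numbered OE and EV libraries as pairs, it was 0 in the 4 comparisons of OE with EV; over all genes the block gave 0 calls in both sets (0 without it), 1 in the first set (5 without it), 71 in the second set (0 without it) and 3 for the difference between sets (1 without it). The 3 HOX genes at a mean of 1 CPM became 1 at 2 CPM (HOXA3) and 1 at 1 RPKM (HOXA5), and 3 to 4 when 1 library was left out. Of 244 alternative log2 changes of HOXA2, HOXA3, HOXA5 and HOXB3, 223 kept sign and side of the threshold, 21 reversed, 19 of them by leaving out a library, and 0 crossed the threshold. The other 2 were HOXB3 in the second set with RLE size factors (-0.00025) and HOXA2 between the sets in EV libraries only (0.37). Leaving out a library gave, for OE over EV in both sets, -0.23 to 0.17 for HOXA3, -0.024 to 0.40 for HOXB3 and -0.24 to 0.37 for HOXA2; in the first set -0.54 to 0.22 for HOXA3, -0.060 to 0.83 for HOXB3 and -0.032 to 1.19 for HOXA2; in the second set -0.19 to 0.48 for HOXA3, -0.37 to 0.21 for HOXA5 and -0.25 to 0.31 for HOXB3. For the difference between sets it gave -0.12 to 0.65 for HOXA3 and -0.82 to 0.086 for HOXB3, and between the sets -0.44 to 0.16 for HOXA2. A lone library left in a group was assumed to vary like the other group. Over all genes, the first set had 5 calls with edgeR, 76 with DESeq2, 90 without the filter and 1578 without EV replicate 2 (0 to 1 without any other library); the second set had 0, 1 and 12 calls in the same order, and both sets together 0, 6 and 23. Between the sets, calls ran from 1312 (without EV replicate 4) to 3850 (without EV replicate 2), with 1869 among OE libraries only and 61 among EV libraries only. The cause was not tested. Depth limits the rest: 35 HOX genes were too low to test with both sets together.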
